A study of Mus musculus with 32 samples.

Results

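The genes described here are 10 genes by which skeletal muscle renews ATP at short notice, of 55487 genes in the deposited tables. They are the creatine kinases Ckm, Ckb and Ckmt2, the adenylate kinase Ak1, the AMP deaminase Ampd1, the glycogen phosphorylase Pygm, the glycolytic enzymes Pfkm, Pgam2 and Eno3, and Mb, the oxygen-binding protein myoglobin. They were taken by gene symbol, and the group was chosen by measured values, the lower levels in satellite cells at day 7 from muscle with a graft of brown fat, so that for this contrast their values are a description and not a test.

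RNA had been sequenced from 2 kinds of cell sorted from the supraspinatus of mice, which is one of the rotator cuff muscles: satellite cells, which are the stem cells of muscle fibres, and fibro-adipogenic progenitors (FAPs), which are mesenchymal cells between the fibres. The 8 groups of 4 libraries were satellite cells with BAT and satellite cells of control muscle at day 7, the same pair at day 3, FAPs with BAT and FAPs of control muscle at day 7, and the same pair at day 3. Per the labels all mice were male C57BL/6J of 12 weeks with a wild-type genotype. Every muscle had been injured with cardiotoxin, a toxin of snake venom by which fibres die, and BAT muscle then received interscapular brown adipose tissue (BAT) from mice of 3 weeks, while control muscle had the injury only. The muscles of a pair came from the same mouse, with 4 mice at each day. No sham-operated muscle and no other graft was analysed here, so that BAT cannot be told apart from a transplant as such. The design asks how a BAT graft alters regeneration.

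Creatine kinases move phosphate between ATP and creatine, with Ckmt2 in muscle mitochondria, Ckm on the contractile apparatus of differentiated muscle and Ckb in many other cells. Adenylate kinase and AMP deaminase deal with the ADP and AMP that heavy work leaves behind. Pygm frees glucose 1-phosphate from muscle glycogen, and Pfkm, Pgam2 and Eno3 are the muscle forms of glycolytic enzymes for which other cells use Pfkl or Pfkp, Pgam1, and Eno1 or Eno2. In cultured myoblasts the switch from Ckb to Ckm, from Pgam1 to Pgam2 and from Eno1 to Eno3 goes with differentiation, and MyoD family factors, which bind the E-box CANNTG, and MEF2 are known to act at several of these promoters.

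The stretches before the start sites of 5 of the genes are shown because Ckm and Ckb, a muscle and a general form of the same enzyme, took different courses below, as did Eno3 and the other muscle forms Pgam2 and Pygm. They are from RefSeq (GRCm38.p6, which is mm10), 5′ to 3′ on the strand of the gene, with each CANNTG in capitals, and bases inside an annotated exon were left out. They cover chr7:19410844-19411024 (plus strand) for Ckm, chr11:5803797-5804046 (minus strand) for Pgam2, chr19:6384158-6384398 (plus strand) for Pygm, chr11:70656926-70657175 (plus strand) for Eno3 and chr12:111672339-111672588 (minus strand) for Ckb.
Ckm: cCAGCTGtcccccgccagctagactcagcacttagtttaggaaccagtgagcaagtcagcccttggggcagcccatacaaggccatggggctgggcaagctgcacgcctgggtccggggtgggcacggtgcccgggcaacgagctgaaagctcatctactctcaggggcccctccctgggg
Pgam2: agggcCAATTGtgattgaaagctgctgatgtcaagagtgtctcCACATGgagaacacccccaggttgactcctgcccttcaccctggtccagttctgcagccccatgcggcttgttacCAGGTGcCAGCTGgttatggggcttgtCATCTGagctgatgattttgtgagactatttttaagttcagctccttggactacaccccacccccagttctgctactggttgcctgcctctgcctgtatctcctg
Pygm: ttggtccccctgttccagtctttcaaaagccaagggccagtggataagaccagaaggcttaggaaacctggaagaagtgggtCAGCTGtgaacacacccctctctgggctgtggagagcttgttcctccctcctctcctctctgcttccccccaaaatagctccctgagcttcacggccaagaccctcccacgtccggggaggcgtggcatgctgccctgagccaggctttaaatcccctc
Eno3: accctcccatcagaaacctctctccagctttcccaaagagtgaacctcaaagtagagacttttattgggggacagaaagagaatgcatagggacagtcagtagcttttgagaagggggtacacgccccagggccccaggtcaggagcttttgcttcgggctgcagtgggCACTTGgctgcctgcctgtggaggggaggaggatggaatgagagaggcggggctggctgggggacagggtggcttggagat
Ckb: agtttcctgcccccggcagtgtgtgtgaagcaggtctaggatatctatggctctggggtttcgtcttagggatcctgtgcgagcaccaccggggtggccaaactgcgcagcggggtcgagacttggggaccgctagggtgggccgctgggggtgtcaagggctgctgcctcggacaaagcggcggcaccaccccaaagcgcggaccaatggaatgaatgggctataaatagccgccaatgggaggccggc
The Ckm, Pygm and Eno3 stretches each held 1 E-box, that of Pgam2 held 5 and that of Ckb held none. The E-box of Ckm and of Pygm and 1 of those of Pgam2 read CAGCTG. The MEF2 box, searched on both strands, was found in Pgam2 and in Ckb. Windows of 250 bases before a start site were available for 9 of the 10 genes (17 windows), with no entry for Ampd1. CANNTG, which reads alike on both strands, was in 15 of these 17 windows and in 66.2% of 32817 windows of all genes. CAGCTG, which is one of the letter sets that CANNTG allows, was in 8 of the 17 windows and in 13% of all windows. Some windows of a gene overlap, so that the 17 are not independent. By gene, CANNTG was found for 8 of the 9 and CAGCTG for 6 of the 9. The MEF2 box was in 2 of the 17 and in 2.92% of all, and the CArG box, the site of serum response factor, was in 0 of the 17 and in 1.47% of all. These are letter matches and not measured binding sites.

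Levels are given as CPM, the counts of a gene over all counts of its library on the usual common scale. The 32 libraries held 19.8 M to 46.4 M counts (median 25.7 M). A gene with no count could still be at 0.0647 CPM in the largest library, or at 0.152 CPM in the smallest one (limit of 3 counts, counting error only). Pax7, the satellite cell transcription factor, was at 21 to 164 CPM in satellite cells and at 1.2 CPM or less in FAPs, and Pdgfra, a FAP receptor, was at 251 to 436 CPM in FAPs and at 19.1 CPM or less in satellite cells. The labels give Sca1 as present in both gates, but its gene Ly6a was at 2.38 to 42.8 CPM in satellite cells, against 426 to 1162 CPM in FAPs. At day 3, 3 libraries stood apart by a sum over 20 macrophage transcripts: 2241 CPM in BAT satellite cells replicate 4, 1971 CPM in control satellite cells replicate 3 and 5590 CPM in BAT FAPs replicate 1, against 6.16 to 210 CPM in the others. BAT FAPs replicate 1 also held 88.4 CPM of the myogenic factor Myog, against 1.18 CPM or less in the other FAP libraries outside the day 7 replicate 3 mouse. In that mouse, labelled male like the others, the 4 libraries had 163 to 355 CPM of Xist and 0 CPM of Ddx3y. Calls on the 10 genes that change without these libraries are given with and without them.

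In satellite cells all 10 genes differed between day 7 and day 3, in BAT muscle and in control muscle, 9 of them higher and Eno3 lower at day 7 (edgeR quasi-likelihood F test, Benjamini-Hochberg adjusted p under 0.05). Such differences were common: 28.5% of 16313 genes tested rose and 24.4% fell in BAT muscle, and 29.7% of 16597 genes rose and 29.8% fell in control muscle. The median log2 change of the 10 genes was 2.48 in BAT muscle, against 0.11 over all genes tested, and 3.16 in control muscle, against 0.03 over all genes. Ckmt2 and Ampd1, and mainly Mb, passed the count filter through their day 7 libraries. For these genes a call could only be a rise, so that their part in these counts and medians is a description. In FAPs fewer of the 10 genes differed: Ckm and Pygm rose in BAT muscle, of 7 tested, and Ckm, Ckb, Pygm and Pgam2 rose in control muscle, of 9 tested, while 10.3% of 16119 genes rose and 12.6% fell with BAT, and 11.5% of 16144 genes rose and 11.4% fell in control muscle. Ckm and Pgam2 passed the filter in FAPs mainly through day 7, so that their rises there are also a description. Libraries of the 2 days come from different mice and separate deposited tables, so that day cannot be told apart from a batch that goes with it.

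**Figure D1:**
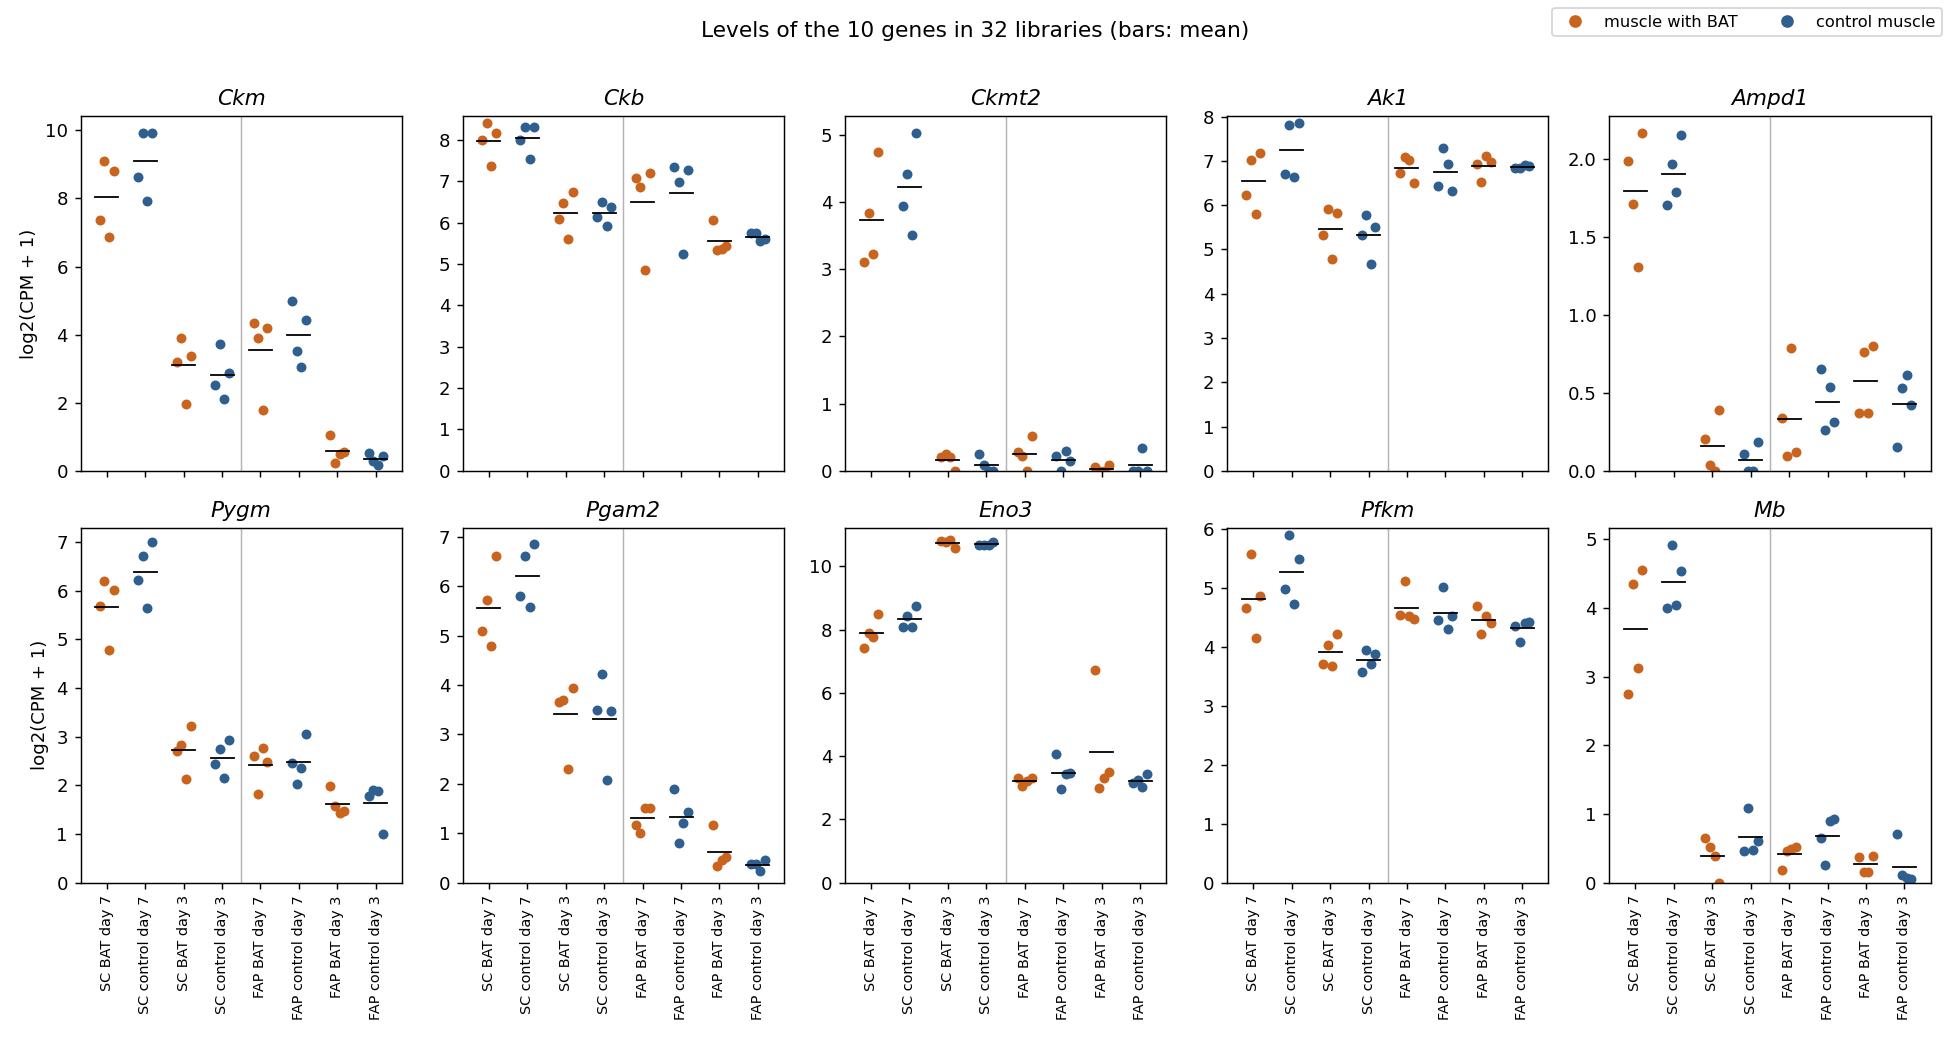
Level of each gene in the 32 libraries as log2(CPM + 1), by group, with satellite cells (SC) left and FAPs right of the grey line. Points are libraries and black bars are means of 4. In satellite cells Ckm reached 115 CPM or more in every day 7 library and 13.8 CPM or less in every day 3 library, and Eno3 ran the other way.

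Ckm, the muscle cytosolic creatine kinase (chr7:19404776-19422841, plus strand, mm10), was at 163, 546, 115 and 445 CPM in BAT satellite cells at day 7 (317 ± 211, mean ± SD, n = 4) and 397, 962, 242 and 974 CPM in satellite cells of control muscle (644 ± 380), in the order of replicates 1 to 4. At day 3 it was at 8.13, 13.8, 2.93 and 9.46 CPM in BAT satellite cells and 4.77, 12.1, 3.33 and 6.26 CPM in those of control muscle. No day 7 library overlapped a day 3 library, and within day 7 BAT and control overlapped across mice. The rise to day 7 was 4.94 ± 0.62 on the log2 scale in BAT muscle (SE, edgeR adjusted p = 0.00014) and 6.22 ± 0.63 in control muscle (adjusted p = 2.99e-05). FAPs held far less Ckm: 19.4, 13.9, 2.45 and 17.5 CPM with BAT and 31.0, 10.5, 7.21 and 20.5 CPM in control muscle at day 7, against 1.09 CPM or less in all 8 day 3 libraries. Their rise was 4.64 ± 0.68 with BAT (edgeR adjusted p = 0.00323) and 5.93 ± 0.52 in control muscle (adjusted p = 0.000469). The difference of the rise between satellite cells and FAPs was 0.37 ± 0.73 with BAT (edgeR adjusted p = 0.776) and 0.57 ± 0.83 in control muscle (adjusted p = 0.669), with errors too wide to show that the rises were alike.

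In control FAPs the rise of Ckm went with that of other fibre transcripts. In BAT FAPs few of those tested were called, with 1 day 3 library that was high in fibre transcripts. A sum over 18 genes of mature muscle fibres was at 98.5, 93.8, 40.5 and 90.9 CPM in BAT FAPs and 156, 53.4, 65.8 and 104 CPM in control FAPs at day 7, against 5.27 to 67.1 CPM in BAT FAPs and 4.83 to 8.39 CPM in control FAPs at day 3. The days overlapped with BAT through day 3 replicate 1 at 67.1 CPM, the library with 5590 CPM of macrophage transcripts. Replicates 2 to 4 of that group were at 5.27, 6.36 and 6.68 CPM, below all day 7 libraries. The counts of fibre genes below include that library, so that they show no difference between BAT and control FAPs. Acta1, which is in this sum, was at 64.9, 66.1, 18.6 and 62.1 CPM in BAT FAPs at day 7. In control FAPs of that day Acta1 was at 105, 35.3, 35.5 and 66.6 CPM. Of the 18 genes 2 of 9 tested rose in BAT FAPs, Mybpc2 (5.68 ± 0.76) and Tnnt3 (1.47 ± 0.43), and 10 of 11 tested rose in control FAPs, with Mybpc2 (8.33 ± 0.95), Tcap (7.97 ± 0.94) and Pvalb (7.40 ± 0.85), all fibre proteins, at the top. Of all genes tested 10.3% rose with BAT and 11.5% in control FAPs. Of the 18 fibre genes 6 had no count in any control FAP library of day 3. Fibre genes that passed the count filter through day 7 could only be called as a rise, so that these counts are a description. In satellite cells the same sum was at 1612 to 3722 CPM with BAT and 2816 to 5261 CPM in control muscle at day 7. The part of RNA from fibres or from satellite cells in the FAP values was not tested. In these bulk samples, fewer cells of a type cannot be told apart from less RNA per cell.

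Ckb, the creatine kinase of most other tissues (chr12:111669361-111672338, minus strand), rose less. At day 7 it was at 253, 335, 164 and 287 CPM in BAT satellite cells and 253, 316, 185 and 314 CPM in control satellite cells. At day 3 it was at 66.7, 87.7, 47.9 and 106 CPM with BAT and 68.9, 89.5, 59.4 and 82.2 CPM in control muscle. The days did not overlap. BAT and control lay close in each mouse at day 7 (ratios of 0.888 to 1.06) and less so at day 3 (0.806 to 1.29). The rise was 1.5 ± 0.27 with BAT (edgeR adjusted p = 0.00106) and 1.48 ± 0.21 in control muscle (adjusted p = 0.000233). In FAPs at day 7 it was at 133, 114, 27.8 and 146 CPM with BAT and 160, 126, 36.8 and 152 CPM in control muscle, and at day 3 at 39.7 to 65.8 CPM with BAT and 45.9 to 52.4 CPM in control muscle. Replicate 3, the mouse with Xist, was the low library in both day 7 FAP groups and lay below all day 3 libraries. Its FAP libraries were also low in a sum of 7 tendon cell genes, at 669 CPM with BAT and 1057 CPM in control muscle, against 3716 to 6854 CPM in the other day 7 FAPs, and the part of that in the Ckb value was not tested. The rise in FAPs was 1.18 ± 0.41 with BAT (edgeR adjusted p = 0.0626) and 1.32 ± 0.36 in control muscle (adjusted p = 0.0235). With BAT it passed without day 7 replicate 3 (1.49 ± 0.19, edgeR adjusted p = 0.000749) and without day 3 replicate 1, the library with 5590 CPM of macrophage transcripts (1.39 ± 0.44, adjusted p = 0.0492). In control FAPs the call was lost without most single libraries.

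Per kilobase of annotated exon, Ckm made up 50.6 ± 12.3% of the sum of Ckm and Ckb in BAT satellite cells and 67.0 ± 9.78% in control satellite cells at day 7 (SD, n = 4). At day 3 its share was 9.56 ± 3.36% with BAT and 7.65 ± 2.89% in control muscle. In FAPs the share was 10.5 ± 1.89% with BAT and 13 ± 4.09% in control muscle at day 7, and 1.03 ± 0.476% and 0.564 ± 0.255% in BAT and control FAPs at day 3. Satellite cells thus held mostly Ckb at day 3 and a mixture at day 7. Scaled to the longest protein-coding transcript, the day 7 shares in satellite cells were 36.3% with BAT and 52.8% in control muscle, so that with BAT the length used decides which form leads, while in control muscle Ckm led on average by either length. Gm12892, a processed copy 96.8% identical to Ckb over 1149 bases, was counted separately at up to 33.8 CPM, and reads may be split between them. Adding it to Ckb moved the day 7 shares of Ckm to 48.4% with BAT and 64.9% in control muscle.

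**Figure D2:**
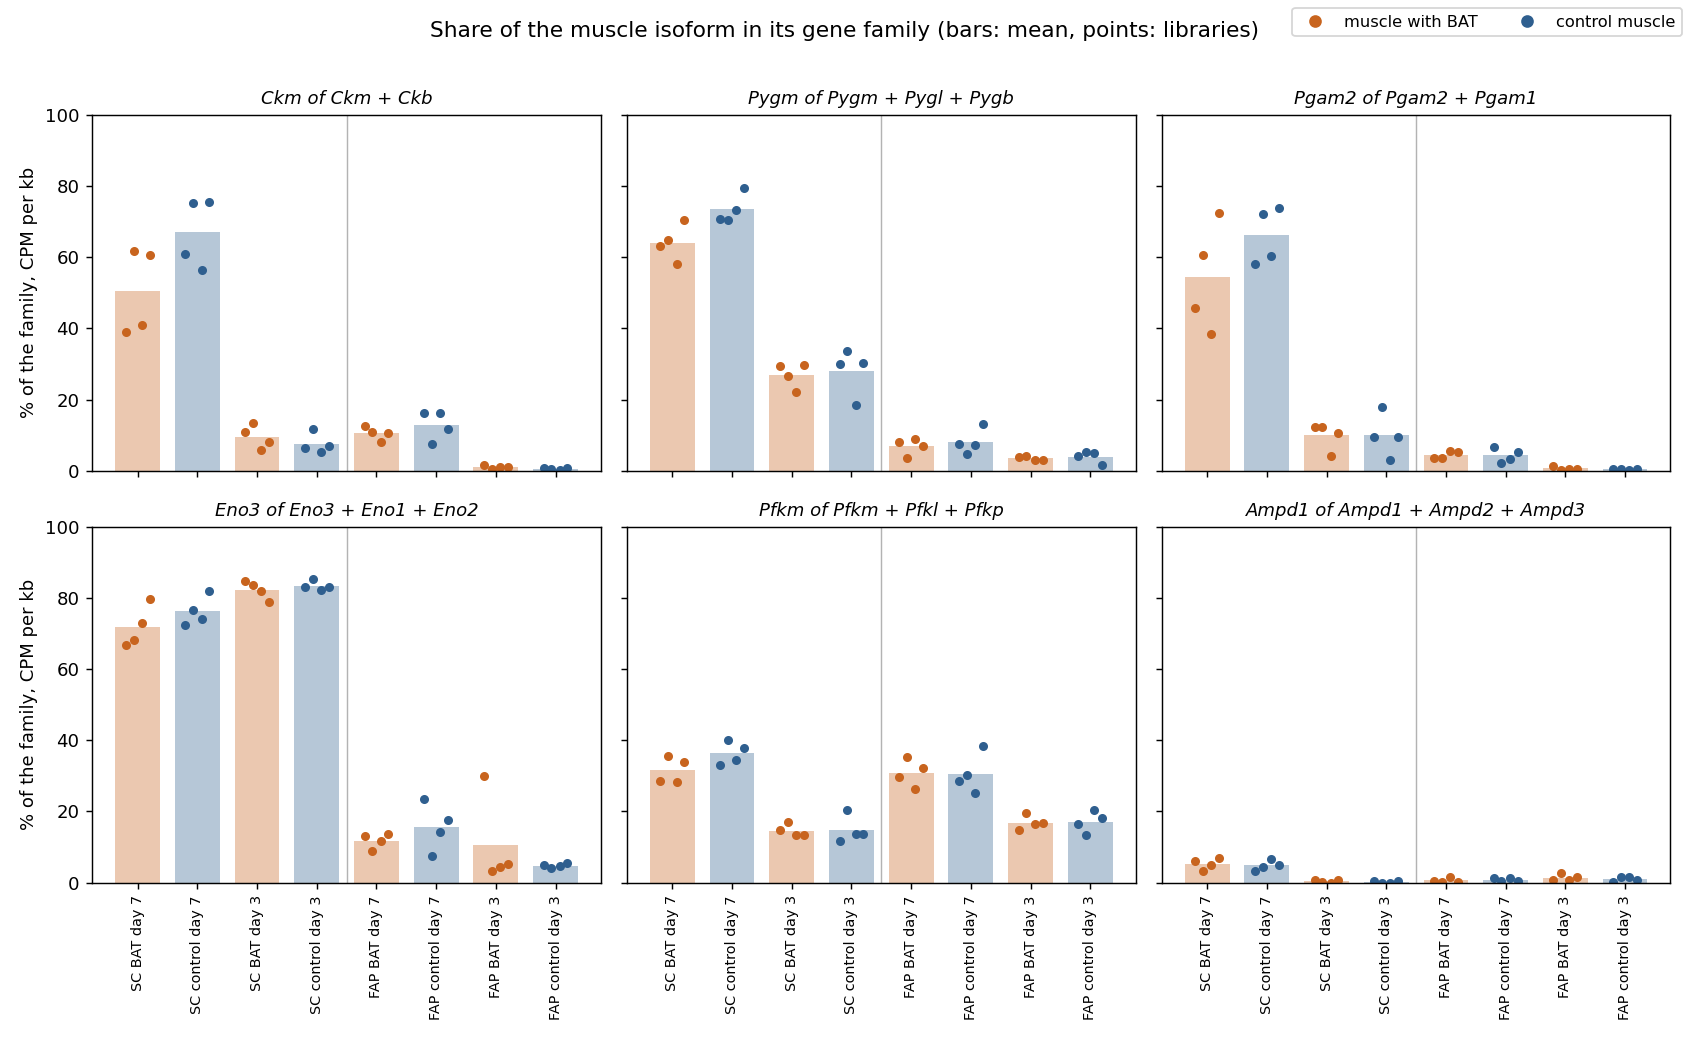
Share of the muscle form in the summed level of its gene family, in percent of CPM per kilobase of annotated exon, for 6 families. Bars are means of 4 libraries, points are libraries, SC are satellite cells. In satellite cells at day 7 the mean shares of Ckm, Pygm and Pgam2 were 50.6% or more, with single BAT libraries as low as 39.0% for Ckm and 38.5% for Pgam2, and the mean share of Eno3 was 71.8% or more on both days.

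Ckmt2, the mitochondrial creatine kinase of muscle (chr13:91853387-91876885, minus strand), was found mainly in satellite cells at day 7. It was at 7.59, 13.3, 8.31 and 25.9 CPM with BAT and 14.4, 20.4, 10.3 and 31.6 CPM in control muscle, against 0.187 CPM or less with BAT and 0.189 CPM or less in control muscle at day 3. All 16 FAP libraries were at 0.429 CPM or less. The fitted rise in satellite cells was 6.42 ± 0.63 with BAT (edgeR adjusted p = 4.11e-05) and 7.72 ± 0.67 in control muscle (adjusted p = 1.44e-05); its size depends on the prior count, since the day 3 levels rest on few counts or none. The other mitochondrial form, Ckmt1, stayed at 0.274 CPM or less in every library and was not tested.

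Ak1, the cytosolic adenylate kinase (chr2:32621758-32635058, plus strand), differed in its course between the cell types. Satellite cells had 73.7, 130, 54.7 and 143 CPM with BAT and 104, 223, 97.9 and 230 CPM in control muscle at day 7, against 38.8, 59.2, 26.6 and 55.5 CPM with BAT and 39.1, 54.2, 24.4 and 44.1 CPM in control muscle at day 3. FAPs had 90.1 to 136 CPM with BAT and 79.4 to 156 CPM in control muscle at day 7, and 91.0 to 136 CPM with BAT and 113 to 118 CPM in control muscle at day 3. Control satellite cells thus lay below all control FAPs at day 3 and overlapped them at day 7. The rise in satellite cells was 0.90 ± 0.33 with BAT (edgeR adjusted p = 0.0405) and 1.66 ± 0.35 in control muscle (adjusted p = 0.0025), and in FAPs the change was 0.01 ± 0.21 with BAT and 0.03 ± 0.25 in control muscle. The difference of the rise between satellite cells and FAPs was 0.82 ± 0.40 with BAT (edgeR adjusted p = 0.183) and 1.79 ± 0.39 in control muscle (adjusted p = 0.00962), where satellite cells rose more. With BAT it was 1.14 ± 0.35 (edgeR adjusted p = 0.0494) without the day 7 replicate 3 mouse. In this test of the difference 10.6% of 17908 genes were higher and 7.28% lower with BAT, and 15.4% of 18069 genes were higher and 8.39% lower in control muscle. Satellite cells had less Ak1 than FAPs at day 3, by -1.63 ± 0.18 with BAT (edgeR adjusted p = 0.000379) and -1.68 ± 0.18 in control muscle (adjusted p = 0.000137). The call for the rise with BAT was lost with the size factors of DESeq2 (edgeR adjusted p = 0.0519) and without 5 of the 8 libraries, each left out in turn (adjusted p = 0.0656 to 0.121). These were day 3 replicates 1, 3 and 4, the last of them high in macrophage transcripts (0.88 ± 0.37, edgeR adjusted p = 0.0656), and day 7 replicates 2 and 4.

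Ampd1, the AMP deaminase of muscle (chr3:103074014-103099720, plus strand), was low throughout. In satellite cells it was at 2.97, 2.27, 1.47 and 3.48 CPM with BAT and 2.25, 2.90, 2.44 and 3.45 CPM in control muscle at day 7, against 0.308 CPM or less and 0.137 CPM or less in the BAT and control libraries of day 3. FAPs were at 0.738 CPM or less in all 16 libraries. The rise in satellite cells was 4.11 ± 0.69 with BAT (edgeR adjusted p = 0.000721) and 5.48 ± 0.68 in control muscle (adjusted p = 9.86e-05). It exceeded that of FAPs by 5.22 ± 1.25 with BAT (adjusted p = 0.0189) and 5.58 ± 1.18 in control muscle (adjusted p = 0.00853), with sizes that depend on the prior count. The call with BAT was lost without either of 2 of the 8 mice (edgeR adjusted p = 0.0537 and 0.0565). Most AMP deaminase transcript came from other genes: per kilobase Ampd1 was 5.32 ± 1.55% of the family with BAT and 4.83 ± 1.36% in control satellite cells at day 7. Ampd3, the form found in red blood cells and elsewhere, rose in satellite cells by 1.80 ± 0.23 with BAT and 1.92 ± 0.18 in control muscle (edgeR adjusted p = 0.00017 and 2.09e-05).

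**Figure D3:**
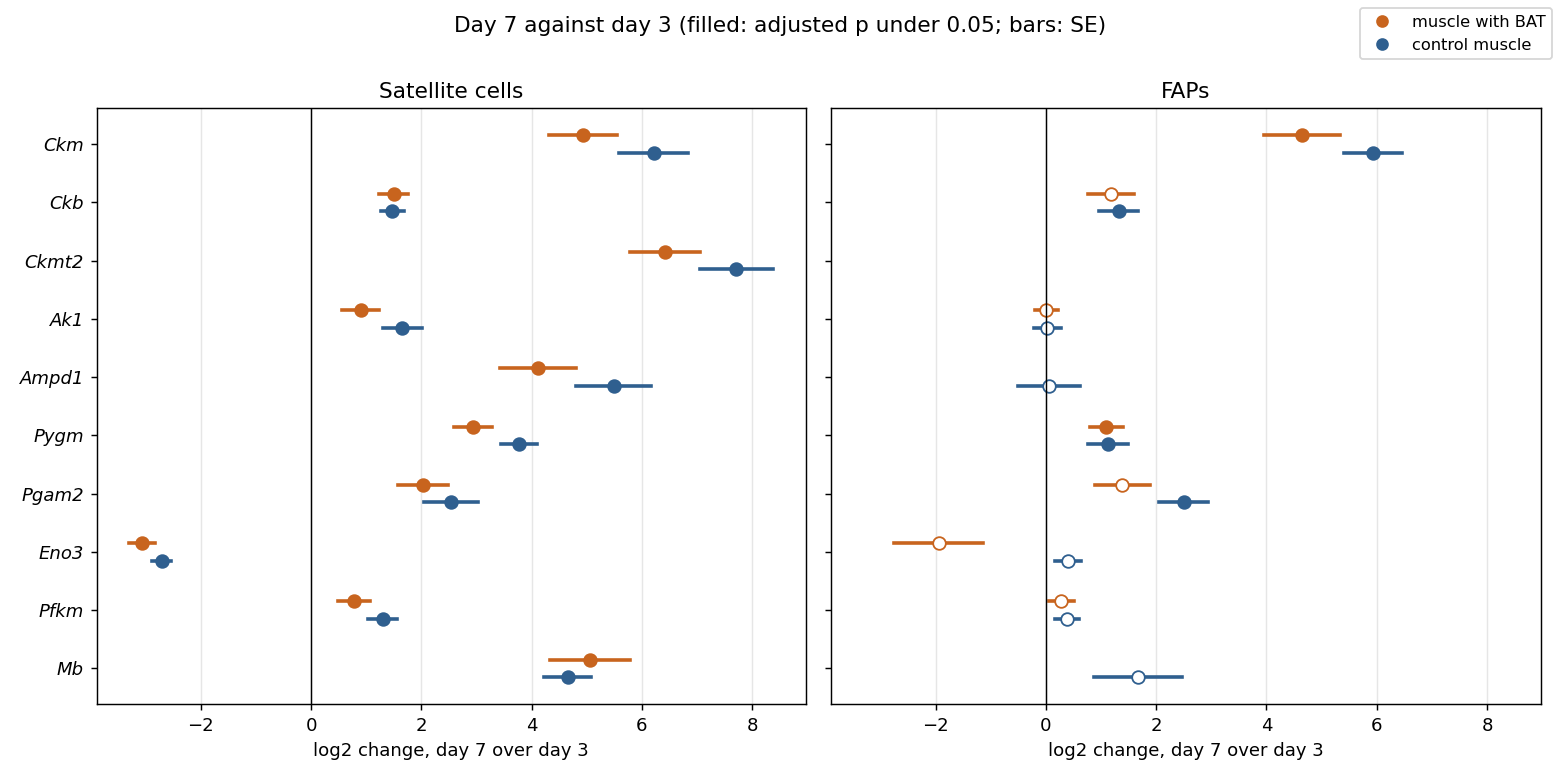
Log2 change of each gene at day 7 over day 3 in satellite cells (left) and FAPs (right), in muscle with BAT and in control muscle. Bars are SE and filled points passed the edgeR test at an adjusted p under 0.05; genes with no point were below the count filter. Eno3 in satellite cells, at -3.07 with BAT and -2.71 in control muscle, was the single filled point left of 0.

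Pygm, the glycogen phosphorylase of muscle (chr19:6384399-6398459, plus strand), was at 50.6, 72.4, 26.3 and 64.0 CPM in BAT satellite cells and 73.0, 104, 48.9 and 126 CPM in control satellite cells at day 7. At day 3 it was at 5.56, 6.08, 3.39 and 8.28 CPM with BAT and 4.39, 5.67, 3.41 and 6.58 CPM in control muscle. All day 7 libraries lay above all day 3 libraries, with a rise of 2.93 ± 0.34 with BAT (edgeR adjusted p = 0.000102) and 3.77 ± 0.33 in control muscle (adjusted p = 1.44e-05). In FAPs it was at 2.53 to 5.82 CPM with BAT and 3.08 to 7.34 CPM in control muscle at day 7, and at 1.71 to 2.98 CPM with BAT and 0.985 to 2.71 CPM in control muscle at day 3. The rise in FAPs was 1.1 ± 0.30 with BAT (edgeR adjusted p = 0.0283) and 1.13 ± 0.37 in control muscle (adjusted p = 0.0485), calls that were lost without most single libraries. It was larger in satellite cells than in FAPs by 1.77 ± 0.48 with BAT (edgeR adjusted p = 0.0327) and 2.70 ± 0.34 in control muscle (adjusted p = 0.000775). Without the day 3 mouse whose FAP library was high in macrophage transcripts the difference with BAT was 1.78 ± 0.55 (adjusted p = 0.0505), and that call was lost without 7 of the 8 mice, each left out in turn (1.37 to 1.88, adjusted p at most 0.0867).

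The 3 phosphorylase genes divided between the cell types. Pygl, the liver form, was at 1.59 to 5.37 CPM in BAT satellite cells against 23.8 to 28.1 CPM in BAT FAPs at day 7, and at 2.20 to 7.29 CPM in control satellite cells against 18 to 30.4 CPM in control FAPs. Satellite cells had less Pygl by -3.46 ± 0.28 with BAT and -3.27 ± 0.26 in control muscle, and less Pygb, the brain form, by -1.35 ± 0.13 and -1.03 ± 0.18 in BAT and control muscle (edgeR adjusted p at most 0.00329 for each). They had more Pygm, by 3.09 ± 0.38 with BAT (edgeR adjusted p = 0.000456) and 3.77 ± 0.24 in control muscle (adjusted p = 5.82e-05). Per kilobase Pygm was 64.1 ± 5.16% of the family in BAT satellite cells and 73.5 ± 4.22% in control satellite cells at day 7, against 27.0 ± 3.47% and 28.1 ± 6.55% at day 3 in the same order. In FAPs it was 6.90 ± 2.38% with BAT and 8.15 ± 3.60% in control muscle at day 7.

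Pgam2, the muscle phosphoglycerate mutase (chr11:5801640-5803733, minus strand), was at 33.0, 51.7, 26.7 and 96.3 CPM in BAT satellite cells and 55.1, 97.1, 47 and 114 CPM in control satellite cells at day 7. At day 3 it was at 11.7, 12.0, 3.94 and 14.4 CPM with BAT and 10.3, 17.7, 3.21 and 10.1 CPM in control muscle. The days did not overlap, and the rise was 2.03 ± 0.45 with BAT (edgeR adjusted p = 0.00367) and 2.54 ± 0.48 in control muscle (adjusted p = 0.00129). FAPs were at 1.01 to 1.86 CPM with BAT and 0.754 to 2.69 CPM in control muscle at day 7, and at 0.256 to 1.24 CPM with BAT and 0.176 to 0.379 CPM in control muscle at day 3. Their rise was 1.39 ± 0.50 with BAT (edgeR adjusted p = 0.0691) and 2.50 ± 0.45 in control muscle (adjusted p = 0.00497). With BAT it was 2.08 ± 0.42 without the day 3 FAP library high in macrophage transcripts (edgeR adjusted p = 0.0100). Pgam1, the general form, fell in satellite cells, by -1.57 ± 0.15 with BAT and -1.69 ± 0.12 in control muscle (edgeR adjusted p = 3.42e-05 and 6.3e-06). The share of Pgam2 per kilobase was therefore 54.4 ± 15.3% with BAT and 66.2 ± 8.03% in control satellite cells at day 7, against 9.93 ± 3.87% with BAT and 10.0 ± 6.05% in control muscle at day 3. With the pseudogene Pgam1-ps2, identical to Pgam1 over 765 bases, added to Pgam1, the day 7 shares were 44.9% with BAT and 56.0% in control muscle.

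Eno3, the muscle enolase (chr11:70657202-70662513, plus strand), was the most abundant of the 10 genes in satellite cells at day 3 and the single one that fell. It was at 169, 235, 219 and 361 CPM with BAT and 268, 342, 273 and 432 CPM in control muscle at day 7. At day 3 it was at 1778, 1736, 1816 and 1539 CPM with BAT and 1654, 1655, 1633 and 1756 CPM in control muscle. The day 3 libraries lay within a narrow band, all above every day 7 library. The change was -3.07 ± 0.23 with BAT (edgeR adjusted p = 1.19e-05) and -2.71 ± 0.17 in control muscle (adjusted p = 3.67e-06). FAPs held 7.32 to 8.96 CPM with BAT and 6.75 to 15.8 CPM in control muscle at day 7, and 7.06 to 9.85 CPM in control muscle at day 3. With BAT at day 3 they held 104, 7.02, 8.98 and 10.3 CPM, the first of these in the library with 5590 CPM of macrophage transcripts and 88.4 CPM of Myog. The difference of the change between satellite cells and FAPs was -2.38 ± 0.82 with BAT (edgeR adjusted p = 0.0721), or -3.16 ± 0.27 (adjusted p = 0.000526) without the mouse of that library, and -2.96 ± 0.32 in control muscle (adjusted p = 0.000371).

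Eno1, the enolase of most cells, fell too, by -2.30 ± 0.15 in BAT satellite cells and -2.13 ± 0.11 in control satellite cells, and by -1.87 ± 0.20 in BAT FAPs and -1.59 ± 0.26 in control FAPs (edgeR adjusted p at most 0.0037 for each). Per kilobase of annotated exon Eno3 therefore kept most of the enolase transcript in satellite cells, with 71.8 ± 5.87% with BAT and 76.3 ± 4.17% in control muscle at day 7, against 82.2 ± 2.54% with BAT and 83.4 ± 1.37% in control muscle at day 3. Per longest protein-coding transcript these shares were 52.2% and 57.8% in BAT and control muscle at day 7, against 66.0% and 67.9% at day 3 in the same order. Eno1b, 99.5% identical to Eno1 over 1652 bases, was counted apart at up to 892 CPM, and reads may be split between the pair. Adding it to Eno1, per kilobase of annotated exon, moved the shares of Eno3 to 62.8% with BAT and 68.2% in control muscle at day 7. At day 3 they were then 73.6% with BAT and 75.3% in control muscle. The coding length and the copy together were not computed and would lower the shares further, so that whether Eno3 led at day 7 depends on this choice. In control FAPs at day 3 Eno3 was 4.76 ± 0.597% of the family. Eno2, the neuronal form, rose in all 4 comparisons of days, by 1.60 to 2.61, and was at 10.1 CPM or less in every day 3 library.

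Pfkm, the muscle phosphofructokinase (chr15:98092589-98132451, plus strand), was found in both cell types. It was at 24.1, 46.6, 16.7 and 28.1 CPM in BAT satellite cells and 30.7, 58.6, 25.3 and 44.1 CPM in control satellite cells at day 7, against 12.0, 15.2, 11.7 and 17.6 CPM with BAT and 10.8, 14.3, 12.0 and 13.8 CPM in control muscle at day 3. FAPs were at 21.1 to 33.7 CPM with BAT and 18.7 to 31.4 CPM in control muscle at day 7, and at 17.5 to 24.9 CPM with BAT and 15.9 to 20.5 CPM in control muscle at day 3. The rise in satellite cells was 0.78 ± 0.29 with BAT (edgeR adjusted p = 0.0411) and 1.3 ± 0.27 in control muscle (adjusted p = 0.00207). With BAT the call was lost with the size factors of DESeq2 (edgeR adjusted p = 0.0545) and without 6 of the 8 libraries, each left out in turn (adjusted p = 0.0657 to 0.124). These were all 4 of day 3, among them the one high in macrophage transcripts (0.78 ± 0.32, edgeR adjusted p = 0.0657), and replicates 2 and 4 of day 7, with a rise of 0.42 ± 0.20 (adjusted p = 0.111) without replicate 2. In FAPs the change was 0.28 ± 0.23 with BAT (edgeR adjusted p = 0.393) and 0.38 ± 0.21 in control muscle (adjusted p = 0.213). Satellite cells differed from FAPs at day 7 by -0.29 ± 0.16 with BAT (edgeR adjusted p = 0.182) and 0.31 ± 0.15 in control muscle (adjusted p = 0.135), and at day 3 they had less Pfkm, by -0.77 ± 0.11 with BAT (adjusted p = 0.000858) and -0.70 ± 0.10 in control muscle (adjusted p = 0.000644). The difference of the rise between satellite cells and FAPs was 0.41 ± 0.21 with BAT (edgeR adjusted p = 0.200), or 0.59 ± 0.16 (adjusted p = 0.0373) without the day 7 replicate 3 mouse. In control muscle it was 1.02 ± 0.18 (edgeR adjusted p = 0.00355), a call that was lost with no pairing by mouse (adjusted p = 0.0563). The gene overlaps Senp1 on the opposite strand, at 37.5 CPM or less, and whether the counting used strand is not given in the sources used here.

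Mb, the gene of myoglobin (chr15:77015487-77050670, minus strand), was at 5.74, 19.4, 7.72 and 22.4 CPM in BAT satellite cells and 15, 29.3, 15.5 and 22.2 CPM in control satellite cells at day 7. At day 3 it was at 0.575 CPM or less with BAT and 0.379 to 1.12 CPM in control muscle, and FAPs were at 0.891 CPM or less in all 16 libraries. The rise in satellite cells was 5.06 ± 0.72 with BAT (edgeR adjusted p = 0.000287) and 4.65 ± 0.43 in control muscle (adjusted p = 1.92e-05). It exceeded that of FAPs by 4.33 ± 0.97 with BAT (edgeR adjusted p = 0.0148), and by 2.95 ± 1.05 in control muscle (adjusted p = 0.0693). The control difference passed with DESeq2 (DESeq2 adjusted p = 0.0244). With edgeR it passed with no filter (adjusted p = 0.0356), with no pairing by mouse (0.0285) and without a day 3 mouse (0.0447). The call with BAT was lost without 1 of the 8 mice (4.06, edgeR adjusted p = 0.0530). Ckm, too, overlaps a gene on the opposite strand, A930016O22Rik at 8.04 CPM or less, and Mb overlaps Apol6 at 8.54 CPM or less.

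Satellite cells were set against FAPs of the same mice within each day. At day 3, of 7 genes tested with BAT 5 were higher in satellite cells (Ckm, Ckb, Pygm, Pgam2 and Eno3) and Ak1 and Pfkm were lower, and of 8 tested in control muscle the same 5 were higher and the same pair lower, with Mb at 1.81 ± 0.80 (edgeR adjusted p = 0.0776). Of all genes tested 31.1% were higher and 35.4% lower with BAT, and 35.8% and 35.9% in control muscle. The largest difference was that of Eno3, at 6.70 ± 0.86 with BAT (edgeR adjusted p = 0.000662) and 7.55 ± 0.14 in control muscle (adjusted p = 9.3e-07). At day 7 all 10 were tested and 8 were higher in satellite cells, with BAT and in control muscle, while 24.5% of genes with BAT and 22.5% in control muscle were higher (25.3% and 22.6% lower). Ak1 and Pfkm were the exceptions, with Ak1 at -0.73 ± 0.28 with BAT (edgeR adjusted p = 0.0629) and 0.08 ± 0.28 in control muscle (adjusted p = 0.833). The median difference over the 10 genes was 3.63 with BAT and 4.17 in control muscle, against 0.03 and 0.05 over all genes tested. Ckmt2, Ampd1 and mainly Mb at day 7, and mainly Ckm and Pgam2 at day 3, passed the count filter through their satellite cell libraries. For these genes a call could only be higher, so that their part in these counts and medians is a description.

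**Figure D4:**
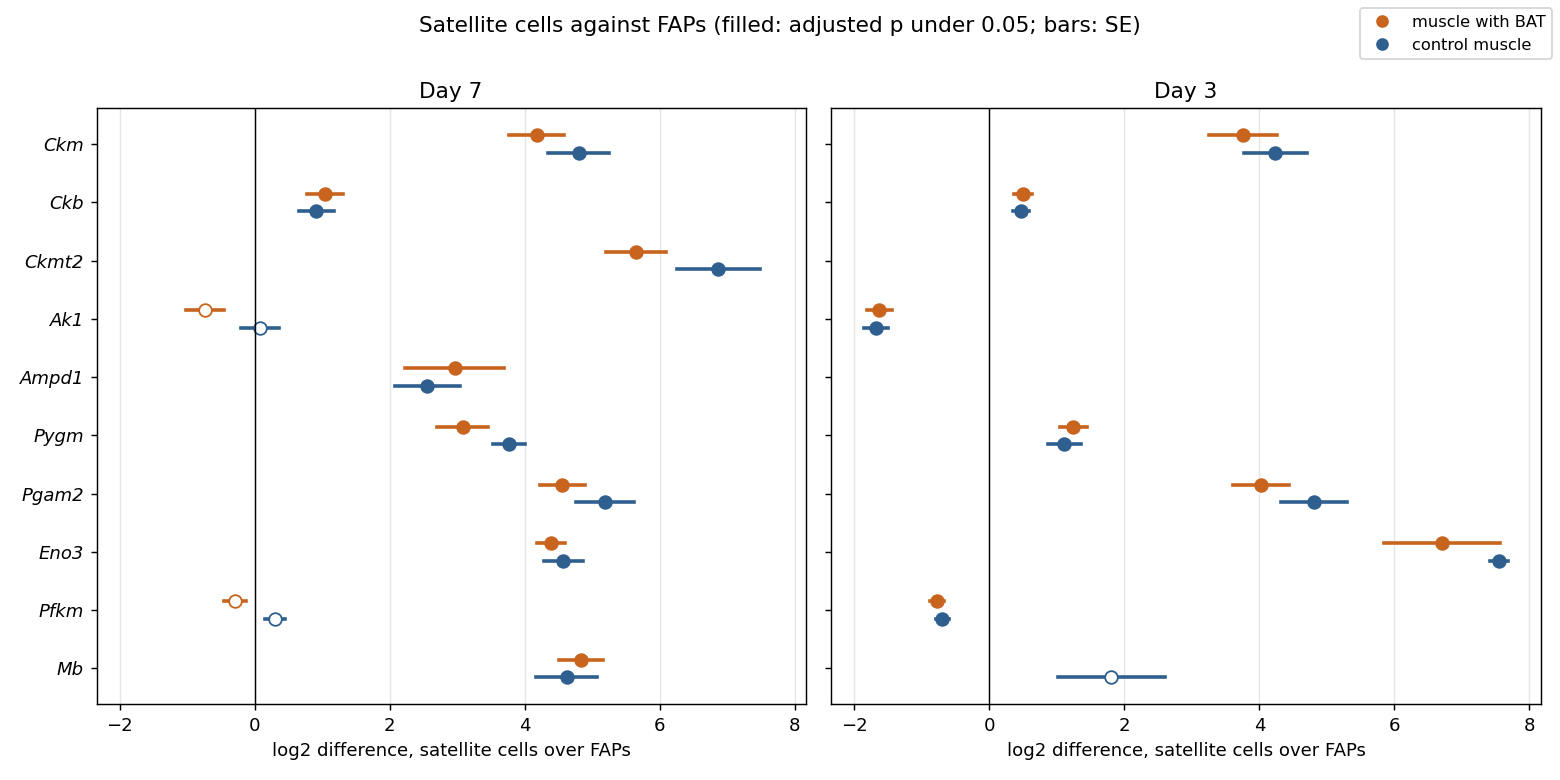
Log2 difference of each gene in satellite cells over FAPs of the same mice at day 7 (left) and day 3 (right), with BAT and in control muscle. Bars are SE and filled points passed the edgeR test at an adjusted p under 0.05; genes with no point were below the count filter. Eno3 stands at 6.70 and 7.55 at day 3, and Ak1 and Pfkm lie left of 0 there.

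Ckb was the weakest of the 8 at day 7, at 1.05 ± 0.27 with BAT (edgeR adjusted p = 0.0138) and 0.91 ± 0.26 in control muscle (adjusted p = 0.0244). Without the pairing by mouse its calls were lost with BAT (edgeR adjusted p = 0.126 at day 7 and 0.103 at day 3) and in control muscle at day 7 (adjusted p = 0.157). Of the 4 mice left out in turn, 1 ended its call with BAT at day 7, 2 that in control muscle at day 7 and 2 that with BAT at day 3 (edgeR adjusted p = 0.0545 to 0.0780), and 3 ended the call of Ampd1 with BAT at day 7 (adjusted p = 0.0508 to 0.0558). A sum of 13 genes high in FAPs was at 2585 to 5042 CPM with BAT and 2482 to 11402 CPM in control satellite cells at day 7, against 60742 to 107009 CPM in FAPs of that day. The FAP markers Pdgfra and Ly6a, both in this sum, lay further below FAPs than the sum did. With BAT at day 7 Pdgfra was at 1.26 to 2.31 CPM in satellite cells against 265 to 321 CPM in FAPs. Ly6a was at 5.01 to 10.7 CPM against 426 to 729 CPM there. In control satellite cells at day 7 Pdgfra was at 1.02 to 7.01 CPM and Ly6a at 4.30 to 9.30 CPM. Replicate 2 was the highest of these libraries in the sum and in Pdgfra, and replicate 3 in Ly6a. The part of FAP RNA in the satellite cell values was not tested.

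Ordered by level, control satellite cells at day 7 came first for 9 of the genes, and BAT satellite cells at day 7 second for all of these but Ak1. The ranges of these neighbours overlapped for each gene. Below them came a gap with no overlap for Ckm, Ckb, Ckmt2, Ampd1, Pygm, Pgam2 and Mb. Such gaps were not counted over all genes, so that they describe these genes and do not set them apart. Per kilobase, Ckm (109 ± 72.4 CPM per kilobase) stood second to Eno3 (141 ± 46.9) in BAT satellite cells at day 7, and in control satellite cells Ckm led with 221 ± 130, ahead of Eno3 with 189 ± 44.1. At day 3 Eno3 led with 987 ± 70.8 CPM per kilobase with BAT and 963 ± 32 in control satellite cells, ahead of Ckb with 26.6 ± 8.70 and 25.9 ± 4.64. In FAPs Ak1 led in all 4 groups, with 42.5 to 45.7 CPM per kilobase.

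In satellite cells at day 7, the contrast with which the genes were chosen, the mean level was lower with BAT than in control for all 10. The ratio of BAT to control for Ckm was 0.410, 0.567, 0.477 and 0.457 in replicates 1 to 4, that for Pygm 0.694, 0.698, 0.539 and 0.507, and that for Ak1 0.711, 0.583, 0.558 and 0.623. All 4 mice lay below 1 for these 3 genes and for Ckmt2, Pgam2, Eno3 and Pfkm. Thus 7 of the 10 were lower with BAT in 4 of 4 mice. The same held for 9.58% of 14381 genes with a mean of at least 1 CPM in both groups, which all 10 genes had. Mb was lower in 3 of 4 mice, with ratios of 0.383, 0.663, 0.499 and 1.01, and Ampd1 in 2 of 4. Ckb was also lower in 3 of 4, but its ratios lay at 0.888 to 1.06. The fitted differences ran between -1.05 ± 0.11 for Ckm and -0.04 ± 0.09 for Ckb, with a median of -0.58. Over all genes tested, 3 of 16868 genes were called, all lower (0.0178%), and Ckm was 1 of them. That call was lost with no pairing by mouse, where the difference was -0.998 ± 0.557, and without the mouse of replicate 1 (-0.99 ± 0.12), of replicate 3, which had Xist (-1.06 ± 0.14), or of replicate 4 (-1.04 ± 0.13). The other 2 were the fibre genes Myh4, a fast myosin heavy chain, at -1.39 ± 0.12, and Mybpc2, a myosin-binding protein of fast fibres, at -1.13 ± 0.12. Of the 18 genes of mature muscle fibres 17 were tested in this contrast, with a median of -0.62, against -0.58 for the 10 genes.

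**Figure D5:**
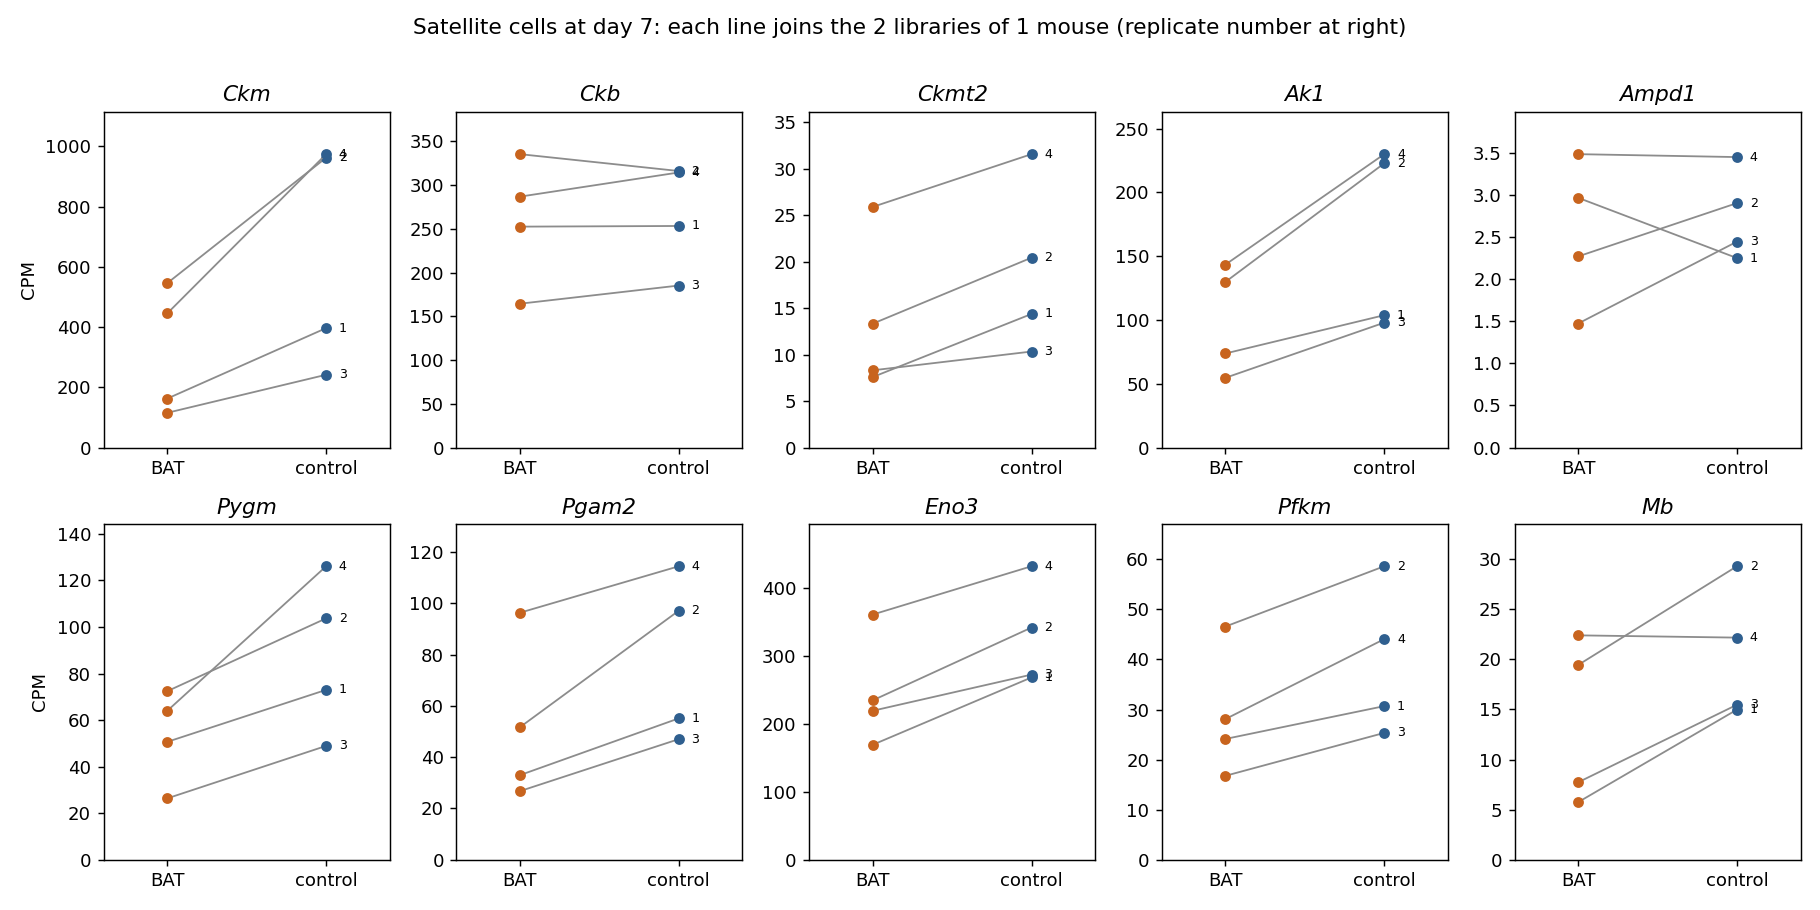
Level in CPM of each gene in satellite cells at day 7, in muscle with BAT (left) and control muscle (right), with a line for each of the 4 mice and its replicate number. Axes start at 0. All 4 lines climb to the right for Ckm, Ckmt2, Ak1, Pygm, Pgam2, Eno3 and Pfkm, and those of Ckb are nearly level.

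Genes of the contractile fibre lay lower in the same libraries. The sum of the 18 fibre genes was at 1933, 3409, 1612 and 3722 CPM with BAT and 2956, 4881, 2816 and 5261 CPM in control muscle, lower with BAT in every pair, and the adult fast myosin Myh4 was at 7.76, 17.9, 6.47 and 26.9 CPM with BAT and 19.1, 44.8, 18.9 and 73.9 CPM in control muscle. Fibre genes were not alone in this. A sum of 8 Schwann cell genes was at 575, 560, 165 and 451 CPM with BAT and 651, 863, 198 and 496 CPM in control muscle. Sums of 13 satellite cell genes and of 10 pericyte and smooth muscle genes were not lower with BAT in every pair. The part of fibre content or of other cells in the values of the 10 genes was not tested. The control and BAT libraries of day 7 stand in this comparison and in that of the days, so that the values of the days are not independent of it.

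In the other 3 comparisons of BAT with control none of the 10 genes passed the test. In satellite cells at day 3, 8 were tested, and edgeR called 0 of 15631 genes (0%; 472 at an unadjusted p under 0.05). Ckm was at 0.36 ± 0.20 there, and 0 of the 10 genes were lower with BAT in all 4 mice. Among genes with a mean of at least 1 CPM in both groups it was 0 of 7, against 6.35% of all. In FAPs at day 3, 7 were tested and 0.0188% of all genes were called; Ckm was at 0.83 ± 0.45 and Eno3 at 0.88 ± 0.65, with 104 CPM of Eno3 in the library high in macrophage transcripts. In FAPs at day 7, 8 were tested and 0 of 16021 genes were called (0%; 783 at an unadjusted p under 0.05). Ckm was at -0.44 ± 0.26, Mb at -0.79 ± 0.56 and Ckb at -0.20 ± 0.10. Ckb was the single one of the 10 genes lower with BAT in 4 of 4 mice. By the same limit of 1 CPM it was 1 of 7, against 7.99% of all. In each of these 3 comparisons 0 of the 10 genes reached an unadjusted p under 0.05 with edgeR, and DESeq2 called 0. Whether the BAT difference of the 10 genes changed between days or cell types was not tested.

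The wider pathways did not move as one. Of 15 other genes of phosphate transfer and purine turnover tested in BAT satellite cells, 2 rose and 7 fell at day 7 (median log2 change -0.56), and of 16 in control satellite cells 3 rose and 8 fell (median -0.51). Of all genes tested 28.5% rose and 24.4% fell with BAT, and 29.7% rose and 29.8% fell in control satellite cells. Gatm, which makes the creatine precursor guanidinoacetate, was higher in satellite cells than in FAPs by 6.74 ± 0.48 with BAT and 7.46 ± 0.71 in control muscle at day 7 (edgeR adjusted p = 3.82e-05 and 0.000245). Adssl1, the muscle adenylosuccinate synthase that works with Ampd1, was higher by 2.52 ± 0.41 with BAT and 3.35 ± 0.38 in control muscle (edgeR adjusted p = 0.00173 and 0.000478). Ak5, an adenylate kinase known from brain, was lower, by -2.55 ± 0.45 with BAT and -2.31 ± 0.37 in control muscle.

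Of 21 other genes of glycogen metabolism, 8 rose and 3 fell in BAT satellite cells at day 7 (median 0.49), and of 22 in control satellite cells 12 rose and 2 fell (median 0.95). The shares of all genes tested were again 28.5% and 24.4% with BAT, and 29.7% and 29.8% in control satellite cells. The targeting subunits that bring protein phosphatase 1 to glycogen led: Ppp1r3c rose by 5.47 ± 0.70 with BAT (edgeR adjusted p = 0.000164) and 3.85 ± 0.53 in control muscle (adjusted p = 0.000189), and Ppp1r3d by 3.02 ± 0.65 and 2.77 ± 0.48 in BAT and control muscle. In FAPs 2 of 20 rose and 3 fell with BAT, and 4 rose and 3 fell in control muscle, with Ppp1r3c at 2.01 ± 0.53 and 2.07 ± 0.41 in BAT and control muscle. Of all genes tested in FAPs 10.3% rose and 12.6% fell with BAT, and 11.5% rose and 11.4% fell in control muscle. With BAT the glycogen counts in FAPs were thus near the share of all genes. Of 21 other glycolysis genes, 15 fell and 3 rose with BAT and 14 fell and 4 rose in control satellite cells at day 7 (median -1.25 and -1.12), the direction of Eno3. Slc2a4, the insulin-responsive glucose transporter, rose by 2.99 ± 0.35 with BAT and 3.00 ± 0.36 in control muscle, and Pfkfb3, which makes an activator of phosphofructokinase, rose by 2.36 ± 0.31 in control muscle. In FAPs 11 of 22 fell and 1 rose with BAT, and 10 fell and 2 rose in control muscle, with Pgk1 at -1.86 ± 0.19 and -1.83 ± 0.25 in BAT and control muscle.

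Genes whose levels ran most like those of Ckm, Ckb, Pfkm and Mb were named by Pearson's r of log2(CPM + 1), as a description: libraries share mice, days and cell types. For Ckm these included Olfml2a (r = 0.969) over 32 libraries, and over the 16 satellite cell libraries Ehd3 (0.992) and Tpm2 (0.987), a tropomyosin of the thin filament. For Ckb the nearest was its copy Gm12892 (0.992), followed by Afap1l2 (0.936), and in satellite cells Heyl (0.993), a Notch target, came after Gm12892 (0.997). For Mb they were Myoz1 (0.971), a Z-disc protein, and Pvalb (0.969), the calcium buffer of fast fibres, also in satellite cells (0.981 and 0.982). Pfkm had the weakest likeness over 32 libraries, with Vps37c (0.920) and Lpin1 (0.918), a phosphatidate phosphatase, and in satellite cells Extl3 (0.979) and Lpin1 (0.976).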

How the data were processed

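The authors deposited expected counts, which were not normalised: 71.3% of the values above 0 were whole numbers in the day 3 table and 72.2% in the day 7 table. DRAGEN and mm10 are named in the submitters' processing notes; no version, annotation or use of strand is given in the sources used here. Of 55774 entries 287 repeated another with the same values and were removed. Expected counts were rounded and tested with edgeR 4.0.16 in R 4.3.3 (quasi-likelihood F test, TMM scaling, filterByExpr with minimum count 10 and minimum total 15, Benjamini-Hochberg adjusted p under 0.05 over all genes tested); SE is the absolute log2 change over the square root of F. Coordinates are 1-based from GENCODE M21 (mm10).

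Per the series text paired muscles came from the same mouse, so the mouse was a block in each comparison within a day. Deviations from the group means correlated between the libraries of a pair, over 9213 genes, at a mean r of 0.0433 in satellite cells at day 3 (range -0.385 to 0.533), 0.542 at day 7 (0.195 to 0.760), 0.263 in FAPs at day 3 (0.0129 to 0.452) and 0.708 at day 7 (0.594 to 0.828). At day 3 the libraries of satellite cell replicate 3 and FAP replicate 4 have no mouse code in the labels and were taken as the same mouse, which is an inference. Replicate 4 is the library without a replicate number. Days were compared without pairing. The difference of the day change between cell types was added after the data were seen.

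The 10 genes and all lists were chosen with earlier results of these data known. The rule for named genes takes all 10 genes and 11 related isoforms, up to 3 called genes per other list and comparison by size of change, and the genes with the highest r; some of these are not reported here. Alternatives were DESeq2 1.42.0 and its size factors, no filter, no replicate block, each library or mouse left out, and the 3 libraries high in macrophage transcripts left out. Where the mouse was a block, p-values measure the spread of the differences within these mice, and between days they measure the spread between mice. Proteins were not used here.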

Additional observations from a re-analysis of the deposited data

Results flagged for a closer look

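Among 61 sets of 4 libraries, 1 gene in 1 group each, 4 held a library far from the others (Dixon's test at 95%; chance flags about 1 in 20 sets, so that 4 are near what chance gives). The sets whose highest library was under 1 CPM were not examined. In BAT FAPs at day 3 these were replicate 1 for Ckb, at 65.8 CPM against 39.7 to 42.0 CPM in the others, and for Eno3, at 104 CPM against 7.02 to 10.3 CPM. This library also held 5590 CPM of macrophage transcripts and 88.4 CPM of Myog, and their part in both values was not tested. In control FAPs at day 3 replicate 4 was low for Pygm, at 0.985 CPM against 2.45 to 2.71 CPM. In BAT FAPs at day 7 replicate 2 was high for Pfkm, at 33.7 CPM against 21.1 to 22.3 CPM.

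The change between days differed between satellite cells and FAPs by a test of the difference itself (edgeR adjusted p under 0.05). In BAT muscle it was larger in satellite cells by 5.22 for Ampd1, 1.77 for Pygm and 4.33 for Mb. In control muscle it was larger by 7.06 for Ckmt2, 1.79 for Ak1, 5.58 for Ampd1, 2.70 for Pygm and 1.02 for Pfkm on the log2 scale, and Eno3 differed by -2.96. Mb, at 2.95 in control muscle, did not pass there but passed under some alternatives, so that its difference is not particular to BAT muscle. With BAT Ckmt2 was at 3.64 ± 1.66 (edgeR adjusted p = 0.158) and Eno3 at -2.38. Both passed there with DESeq2 (DESeq2 adjusted p = 0.0198 and 0.0314). Ak1 and Pfkm with BAT passed without the day 7 replicate 3 mouse, so that these calls do not set control muscle apart. Ckmt2, Ampd1 and mainly Mb passed the count filter through satellite cells at day 7, so that their values here are a description. The value for Ckmt2 in control muscle has an SE of 2.00 and lost its call without any of 3 of the 8 mice, each left out in turn. The call for Pygm with BAT was lost without 7 of the 8 mice, that for Ampd1 with BAT without 2 and that for Mb with BAT without 1. That for Pfkm in control muscle was lost with no pairing by mouse.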

How the results depend on the processing

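All 10 genes passed in control satellite cells between days under each alternative run. In satellite cells at day 7, the contrast that chose the genes, edgeR called 1 of the 10 with BAT (Ckm), which is a description, against 6 with no filter on low counts, 4 with DESeq2 and 0 with no replicate block, and 0 to 1 when a mouse was left out. BAT FAPs changed in 2 genes between days, against 4 with DESeq2 and 4 without the libraries high in macrophage transcripts, and 1 to 4 when a library was left out. The difference of the day change between cell types with BAT held for 3 genes, against 5 with DESeq2, and 1 to 5 when a mouse was left out. Left-out ranges for the other counts were 2 to 4 in control FAPs between days, 8 to 10 in BAT satellite cells between days, 5 to 6 for the cell type difference in control muscle, 6 to 7 and 6 to 8 for satellite cells against FAPs with BAT at day 3 and day 7, and 7 and 7 to 8 in control muscle.

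Values near 0 changed sign. Without the libraries high in macrophage transcripts, BAT against control gave -0.033 for Ckb and -0.19 for Pgam2 in satellite cells at day 3 and -0.12 for Pygm in FAPs at day 3 (-0.045 with no replicate block), and the cell type difference gave -0.22 for Pgam2 in control muscle and -0.064 for Ckm with BAT. With DESeq2 size factors and with DESeq2, Pgam2 in FAPs at day 7 gave 0.0053 and 0.0098. When 1 library or mouse was left out, BAT against control ran from -0.12 to 0.11 for Ckb, -0.029 to 0.36 for Pgam2 and -0.0038 to 0.12 for Eno3 in satellite cells at day 3, from -0.33 to 0.031 for Ampd1 in satellite cells at day 7, from -0.24 to 0.25 for Pygm and -0.24 to 0.039 for Ckb in FAPs at day 3, and from -0.24 to 0.14 for Pygm and -0.17 to 0.38 for Pgam2 in FAPs at day 7. Satellite cells against FAPs in control muscle at day 7 gave -0.32 to 0.35 for Ak1. Between days, control FAPs gave -0.27 to 0.20 for Ak1 and -0.26 to 0.31 for Ampd1, and BAT FAPs -0.16 to 0.14 for Ak1. The cell type difference gave -0.22 to 0.84 for Pgam2 in control muscle and -0.064 to 0.88 for Ckm with BAT. The causes were not tested. The scaling of DESeq2 moved the median of all genes by less than 0.1. Depth limits Ckmt2, Ampd1 and Mb in FAPs and at day 3, where counts were few.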
